A study of Mus musculus with 9 samples.

Results

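The E2F and retinoblastoma family genes were measured in granulocyte-macrophage progenitors (GMPs), the bone marrow cells that give rise to neutrophils and monocytes. The group was defined by gene symbol: E2f1, E2f2, E2f3, E2f4, E2f5, E2f6, E2f8, Rb1, Rbl1 and Rbl2. The platform annotation assigned 23 of 45101 probe sets to these 10 symbols alone, and 9 of the genes had more than 1 probe set. All 10 genes were among the 12347 genes tested, out of 18193 on the array, through 21 probe sets that passed a filter on dim signals. A probe set of Rbl1 (1454293_at) and one of Rbl2 (1418146_a_at) did not pass it.

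The 9 arrays fell into 3 groups of 3, Dicer null, het and wt. In all of them the donor cells carried Cebpa-Cre and the Cre-activated reporter R26-LSL-Eyfp. The study crossed in floxed Dicer1 alleles, and its description pairs the null group with Dicer fl/fl and the het group with Dicer -/wt. Donor fetal liver of embryonic day 13.5 was injected into C57BL/6 recipients aged 6 to 8 weeks and irradiated with 8.5 Gy, and EYFP-positive GMPs were sorted from the marrow 6 to 10 weeks later. Cebpa drives the Cre, so recombination and EYFP are tied to cells that express Cebpa or descend from such cells. Dicer1 is the enzyme that trims hairpin precursors to mature microRNAs. Whether the 3 samples of a group came from different donors is not given in the labels, so the p-values speak of the spread among these samples, some of which may be technical. Only for wt replicate 2 do sex-linked genes, given below, show a donor other than that of the rest of its group.

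E2F proteins bind DNA at the promoters of genes for DNA replication and cell division, most of them as dimers with a DP protein. E2F1, E2F2 and E2F3 are called activators, E2F4 and E2F5 act mainly as repressors together with pocket proteins, E2F6 represses with Polycomb partners, and E2F8 is an atypical repressor that binds without a DP protein. The retinoblastoma protein (Rb1) and its relatives p107 (Rbl1) and p130 (Rbl2) hold E2Fs inactive until cyclin-dependent kinases phosphorylate them. In blood formation the family is known for setting when progenitors divide and when they leave the cycle.

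Dicer1 was lowest on the null arrays. Its signal was 105 ± 9.46 in null, 185 ± 16.1 in het and 232 ± 11.1 in wt cells (SD, n = 3 each). Null against wt gave -1.07 on the log2 scale (limma adjusted p = 1.88e-05), and het against wt gave -0.31, which did not pass (adjusted p = 0.217). A second Dicer1 probe set read 57.0, 47.4 and 49.9 in null, 78.8, 66.9 and 70.7 in het, and 136, 122 and 121 in wt cells. Its 3 groups did not overlap, and in the fit over probe sets it was called lower both in null (-1.12, adjusted p = 6.32e-05) and in het (-0.72, adjusted p = 0.00905) against wt. The probes' place relative to the deleted part is not given in the sources used here, so this signal cannot show how complete the deletion was. The GMP label was checked against its markers: the granule genes Mpo, Prtn3 and Ctsg had signals of at least 3811 on every array, and the 10 GMP markers summed to 28626 to 30537 in null, 28224 to 33264 in het and 28362 to 31680.3 in wt cells. Among those 10, the Fc receptor gene Fcgr3 was called higher in null than in wt (0.37) and the G-CSF receptor gene Csf3r lower (-0.38).

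Some other cell type markers also moved with genotype. The 6 monocyte and macrophage genes on the array summed to 4105 to 4159.8 in null, 3640.1 to 4171 in het and 2349.7 to 3655 in wt cells, with 1 of 5 tested, Ccr2 (0.75, adjusted p = 0.0459), called higher in null against wt. The 5 B cell genes summed to 523 to 608 in null, 1047 to 1155 in het and 1152 to 1391 in wt cells. That sum was mainly Ighm, the immunoglobulin mu chain gene, called lower in null against wt (-1.42, adjusted p = 1.02e-06), while Ebf1 stayed under 10 and Cd79a under 15 on all 9 arrays. The B cell receptor gene Cd79b read 131 to 161 in null, 163 to 171 in het and 156 to 178 in wt cells and was not called in null against wt (-0.15, adjusted p = 0.383). The 8 late neutrophil genes summed to 2442 to 8844 in null, 2788 to 5061 in het and 4012 to 7476 in wt cells. Of the 8 tested, 2 were called lower in null against wt, Ltf (-2.09) and Ngp (-2.12). In het against wt 3 of 8 were called lower, Ltf (-1.97), Ngp (-1.86) and Lcn2 (-1.78). The 4 T and NK cell genes summed to 741 to 974 in null, 918 to 1008 in het and 1135 to 1187 in wt cells, and both that were tested, Nkg7 and Klrd1, were called lower in null against wt. Cd3e and Cd3g stayed under 12 on all arrays. The 4 mast cell and basophil genes summed to 3627 to 5559.7 in null, 2817 to 3419.9 in het and 3239 to 5044 in wt cells. The IgE receptor gene Fcer1a alone of the 4 was called in null against wt (-2.25) and in het against wt (-3.11), lower in both. Mcpt8 (0.39), Cpa3 (0.27) and Ms4a2 (0.24), the other 3, had higher values in null against wt and were not called, and Mcpt8 (0.61) and Cpa3 (0.56) were called higher in null against het. The part of such cells in the results below was not tested, and in sorted bulk samples fewer cells of a type and less RNA per cell cannot be told apart. One array stood apart. Wt replicate 2 had a signal of Xist, made by female cells, of 2610, against 16.4 to 30.2 on the other 8. Its signal of the Y-linked gene Eif2s3y was 1.13, against 622 to 859. By these genes the sorted cells of wt replicate 2 read as female and those of the other 8 arrays as male. So the wt group mixed the sexes, while null and het did not, and any part of sex in the results was not tested. The labels call every sample female, without saying whether donor cells or recipients are meant. Wt replicate 2 also had the highest sums of erythroid markers (1636, against 740 to 1009 elsewhere) and megakaryocyte markers (283, against 85.6 to 131). Its monocyte and macrophage sum was the lowest (2349.7, against 3376 to 4171). Genes that should be absent from the GMP gate summed to 92.1 on it, against 32.7 to 45.5 elsewhere, mainly through Flt3 (50.6, against 10.9 to 19.9). Results that rest on wt are therefore given without it as well where the call or the direction changes. Of the marker calls above, tested this way after the data were seen, Ccr2 (0.35, adjusted p = 0.0743), Csf3r (-0.36, 0.0525) and Klrd1 (-0.57, 0.137) were lost in null against wt. These 3 calls were also lost without some other single arrays, as was that on Ngp in het against wt without het replicate 2 (adjusted p = 0.0912).

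In null against wt, 2 of the 10 genes rose, the activators E2f2 and E2f3, and 0 fell. Over all genes tested 15.7% were called, 7.6% higher and 8.09% lower, so the family's count lies near the background. A gene was called where limma's Benjamini-Hochberg adjusted p over the 12347 genes was under 0.05. Signals are MAS5 intensities and changes are of log2(signal + 12), which understates the change of dim genes. Levels of different genes are not compared, since each probe set has its own response.

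E2f2, an activator with a known role in blood cell division, lies at chr4:136172274-136196057 in the RefSeq annotation of GRCm38.p6 and had 1436434_at as its brighter probe set. It read 74.0, 63.3 and 74.0 in null cells, 94.1, 67.2 and 70.6 in het cells, and 41.5, 48.4 and 51.5 in wt cells. All 3 null and all 3 het values lay above all 3 wt values, while null and het overlapped. Null against wt gave 0.48 (95% interval 0.17 to 0.79, adjusted p = 0.0380), a 1.49-fold ratio of mean signals. Het against wt gave 0.59, which did not pass (adjusted p = 0.0702), and null against het gave -0.11 (adjusted p = 0.707). The second E2f2 probe set, 1455790_at, read 73.9, 47.9 and 38.5 in null, 59.5, 58.9 and 57.4 in het, and 50.1, 35.9 and 51.1 in wt cells. Its groups overlapped in null against wt, and its change of 0.16 did not pass (adjusted p = 0.658 over 22365 probe sets). The call on E2f2 was lost without wt replicate 2 (0.50, adjusted p = 0.0701), and also without null replicate 1 (0.104), null replicate 3 (0.118), wt replicate 1 (0.119) or wt replicate 3 (0.0547).

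E2f3, an activator known to promote entry into S phase, lies at chr13:29906575-29986064 in the same annotation. Its brighter probe set, 1434564_at, read 530.1, 472 and 534 in null cells. It read 511, 431.1 and 449.6 in het cells, and 410.1, 430.7 and 397 in wt cells. The 3 null values lay above the 3 wt values, and the het values overlapped with those of null. Null against wt gave 0.30 (95% interval 0.11 to 0.50, adjusted p = 0.0368), a 1.24-fold ratio of mean signals. Het against wt gave 0.16 (adjusted p = 0.496) and null against het 0.14 (adjusted p = 0.351), neither of which passed. The dimmer probe set of E2f3, 1427462_at, gave -0.031 in null against wt (adjusted p = 0.943; 0.0051 without wt replicate 2), with 26.8, 24.3 and 42.3 in null, 32.7, 32.3 and 20.4 in het, and 33.1, 33.6 and 27.7 in wt cells. The call on E2f3 stood without wt replicate 2 (0.33, adjusted p = 0.0499) and was lost without null replicate 1 (0.108), null replicate 3 (0.125), wt replicate 1 (0.0844) or wt replicate 3 (0.111).

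E2f1, the activator best known for linking the cycle to cell death, was not called. Its brightest probe set, 1431875_a_at, read 90.2, 78.2 and 101 in null cells, 97.3, 100 and 98.5 in het cells, and 121, 102 and 119.7 in wt cells. All 3 wt values lay above both other groups, which overlapped. The change was -0.31 in null against wt (SE 0.12, adjusted p = 0.0961) and -0.19 in het against wt (adjusted p = 0.579), and neither passed. Its other tested probe sets gave -0.17 (1417878_at, adjusted p = 0.635) and -0.18 (1447840_x_at, adjusted p = 0.704) in null against wt. On both of them null and wt values overlapped, and 1447840_x_at was dim, from 5.59 to 19.4. Among the activators, the calls rest on the brighter probe sets of E2f2 and E2f3.

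**Figure D1:**
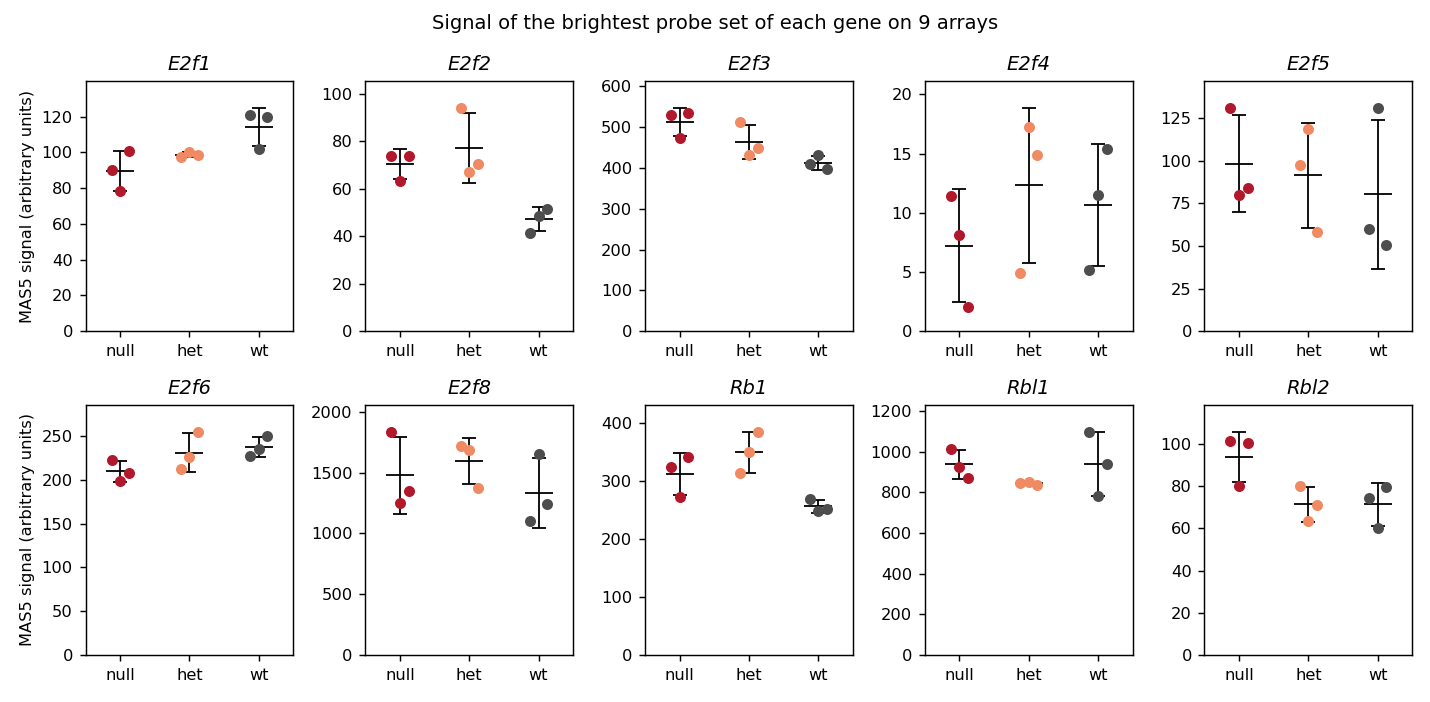
MAS5 signal (arbitrary units, linear axis from 0) of the brightest probe set of each gene; each point is an array, grouped as null, het and wt, and the long line and whiskers are the mean of 3 arrays and its SD. The null points of E2f2, E2f3, Rb1 and Rbl2 lie above the wt points, those of E2f1 and E2f6 lie below them, and the other 4 genes overlap.

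The start-site regions of the 2 genes that were called are shown because E2F genes are known to be E2F targets themselves. The sequences are RefSeq windows of build GRCm38.p6, 250 bases before to 50 after a start, written along the gene. Capitals mark an E2F-type motif, searched on both strands as TTTCCCGC, TTTCGCGC, TTTGCCGC or TTTGGCGC.
E2f2, chr4:136172024-136172323, plus strand: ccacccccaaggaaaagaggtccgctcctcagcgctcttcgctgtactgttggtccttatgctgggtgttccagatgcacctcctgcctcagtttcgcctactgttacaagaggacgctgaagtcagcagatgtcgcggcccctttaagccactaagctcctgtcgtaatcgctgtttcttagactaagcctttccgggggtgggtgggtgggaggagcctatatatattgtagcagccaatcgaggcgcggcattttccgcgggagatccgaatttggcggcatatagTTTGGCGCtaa
E2f3, chr13:29986014-29986313, minus strand: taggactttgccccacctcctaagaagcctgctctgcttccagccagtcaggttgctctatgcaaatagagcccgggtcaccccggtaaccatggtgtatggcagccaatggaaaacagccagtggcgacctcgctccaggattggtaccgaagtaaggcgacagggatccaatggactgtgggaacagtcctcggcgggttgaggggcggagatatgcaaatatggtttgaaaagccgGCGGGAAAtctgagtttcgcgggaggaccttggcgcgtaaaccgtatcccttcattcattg
In E2f2 the match is TTTGGCGC on the gene's strand, 39 bases from the start, and in E2f3 it is TTTCCCGC on the opposite strand, at -11. Rbl1 held TTTCGCGC at -18 in chr2:157204485-157204784. Of 32851 such windows 744 held a match (2.26%), and 3 of the 9 windows found for 7 of the family's genes did. The second windows of E2f2 and E2f3 and those of E2f1, E2f6, E2f8 and Rbl2 held none of these letters. Each window stands at a listed start, which need not be the outermost start of the annotated gene. Those of E2f1, E2f6 and E2f8 lie 465, 56 and 476 bases inside the annotated gene, and that of Rbl1 lies just outside it. The second windows of E2f2 and E2f3 lie 8508 and 1672 bases inside. A match is a string of letters and shows no binding.

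Shown next are 4 mature microRNAs with the seed AAAGUGC, picked by name and not by a search for all that carry it. E2F1, E2F2 and E2F3 are described targets of this family in human cells, and Dicer1 makes such microRNAs. The seed, bases 2 to 8, is in capitals, and the sequences and positions are from RefSeq, build GRCm38.p6. MicroRNAs were not measured here.
mmu-miR-17-5p, chr14:115043684-115043706, plus strand: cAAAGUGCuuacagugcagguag
mmu-miR-20a-5p, chr14:115044183-115044205, plus strand: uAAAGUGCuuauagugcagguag
mmu-miR-106b-5p, chr5:138165787-138165807, minus strand: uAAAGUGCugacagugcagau
mmu-miR-93-5p, chr5:138165574-138165596, minus strand: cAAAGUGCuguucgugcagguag
All 4 have the same seed and differ after it. Of the 3 genes described as targets, E2f2 and E2f3 were called higher in null against wt and E2f1 was not called, with a lower value (-0.31). The second probe sets of E2f2 and E2f3 gave 0.16 and -0.031 in null against wt and were not called. E2f2 by its brighter probe set gave 0.59 in het against wt, also not called. Any part of these microRNAs in the values was not tested.

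Among the repressor E2Fs 0 of 3 genes were called. E2f4, the main repressor partner of p107 and p130, had 1 probe set, 1451480_at, with 11.4, 8.17 and 2.04 in null, 4.91, 17.2 and 14.9 in het, and 5.14, 11.5 and 15.4 in wt cells. These signals lie near the filter of 8.49 and overlap in every pair of groups, so no difference was detectable there (null against wt -0.24, SE 0.28, adjusted p = 0.628). E2f6 read 223, 199 and 208 in null cells, 212, 227 and 256 in het cells, and 227, 236 and 250.1 in wt cells through 1448835_at. Null values lay below all wt values, though the change of -0.17 did not pass (adjusted p = 0.284). Its second probe set, 1437914_at, read 67.8, 65.7 and 40.9 in null, 53.8, 58.4 and 55.7 in het, and 71.5, 76.2 and 79.6 in wt cells, and gave -0.35 (adjusted p = 0.177).

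The probe sets of E2f5 disagreed. The brightest, 1447625_at, read 131, 79.6 and 84.2 in null, 97.3, 119 and 58.2 in het, and 59.6, 131 and 50.2 in wt cells, with a change of 0.33 that did not pass (adjusted p = 0.501). The next, 1460207_s_at, read 42.7, 76.1 and 34.9 in null, 82.2, 65.5 and 74.8 in het, and 80.9, 98.0 and 78.2 in wt cells. All its null values lay below its wt values, and it was called lower, by -0.68 (SE 0.20, adjusted p = 0.0386). A further probe set, 1417444_at, read 19.5, 29.9 and 15.1 in null, 26.6, 26.7 and 20.8 in het, and 28.5, 29.5 and 38.0 in wt cells, and gave -0.41 (adjusted p = 0.186). No direction is therefore given for E2f5. The call on 1460207_s_at was lost without null replicate 1 (0.114) or 3 (0.157), het replicate 2 (0.0514) or 3 (0.0502), and wt replicate 1 (0.0726), 2 (0.120) or 3 (0.0654).

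Over single probe sets, 3 of the family's 21 were called in null against wt, beside 12.3% of the 22365 probe sets tested. They were the E2f2 and E2f3 probe sets named above, higher, and 1460207_s_at of E2f5, lower. In het against wt 0 of 21 were called (1.06% of all), and in null against het 0 of 21 (10.8% of all), by the same limma test.

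**Figure D2:**
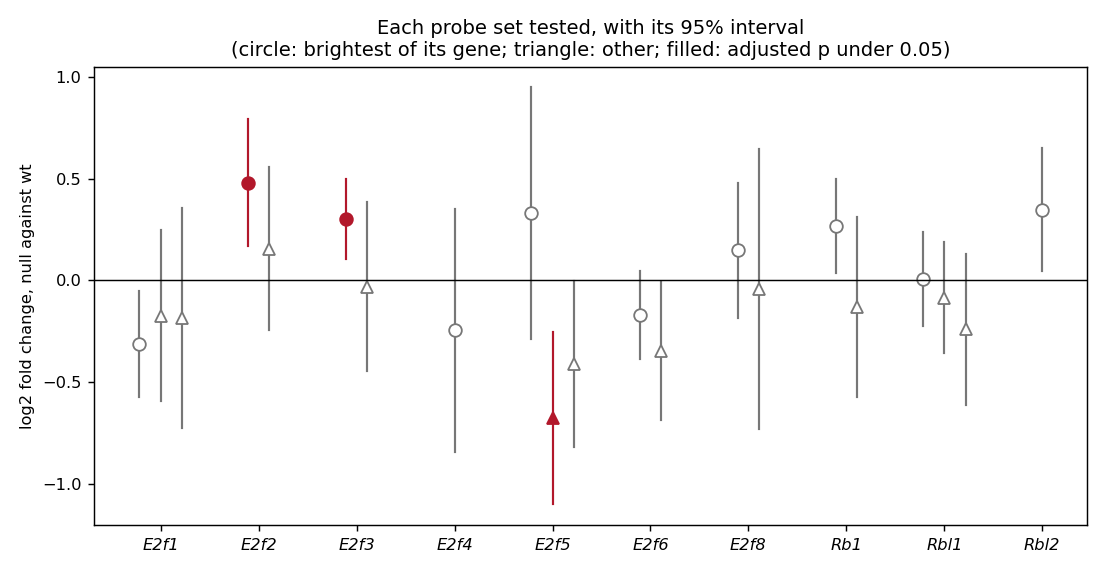
Log2 fold change, null against wt, of each probe set tested, with its 95% interval, by gene; circles are the brightest probe set of a gene, triangles the others, and filled symbols have an adjusted p under 0.05. The E2f5 probe sets lie on both sides of 0, and the second probe sets of E2f2 and E2f3 lie nearer 0 than the called ones.

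E2f8, an atypical E2F that shuts down E2F targets late in the cycle, varied as much within groups as between them. Its brighter probe set, 1436186_at, read 1840, 1247 and 1348 in null, 1721, 1692 and 1376 in het, and 1106, 1655 and 1242 in wt cells. The groups overlapped, and null against wt gave 0.15 (SE 0.15, adjusted p = 0.585), het against wt 0.27 (adjusted p = 0.502). Its other probe set, 1444319_at, was dim, from 2.08 to 24.6. E2f7, the other atypical E2F, stands outside the group defined above. It read 149, 102 and 124 in null, 94.2, 90.6 and 104 in het, and 88.5, 84.4 and 109.9 in wt cells, and gave 0.36 in null against wt (adjusted p = 0.107).

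Of the 3 pocket protein genes 0 were called. Rb1 read 324, 271 and 341 in null, 314, 349.9 and 385 in het, and 269, 248 and 252 in wt cells through 1417850_at. Both null and het values lay above all wt values, the lowest null value narrowly. The changes were 0.27 in null against wt (SE 0.11, adjusted p = 0.107) and 0.43 in het against wt (adjusted p = 0.0715), and neither passed. Null against wt did pass without null replicate 2 (0.36, adjusted p = 0.0428). Its other probe set, 1444400_at, was dim, from 7.64 to 19.0, and gave -0.13.

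Rbl2, which encodes the p130 protein of resting cells, had its higher values in null cells. Through 1425981_a_at it read 102, 80.2 and 100.3 in null, 80.0, 63.5 and 70.9 in het, and 74.5, 60.2 and 79.5 in wt cells. The null values lay above those of both other groups, by a narrow margin at the lowest, and het and wt overlapped. The change was 0.35 in null against wt (SE 0.14, adjusted p = 0.114) and 0.34 in null against het (adjusted p = 0.125), neither of which passed. Het against wt gave 0.0039 (adjusted p = 0.995), and -0.097 without wt replicate 2. Rbl1, which encodes the p107 protein of cycling cells, read 1015, 927 and 873 in null, 846, 850.4 and 839 in het, and 1099.6, 782 and 940.3 in wt cells. Its null values lay above its het values and overlapped with wt, and null against wt gave 0.0071 (SE 0.11, adjusted p = 0.975), and -0.12 without wt replicate 2 (0.485). Other Rbl1 probe sets gave -0.085 (1425166_at) and -0.24 (1432604_at), and neither passed.

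**Figure D3:**
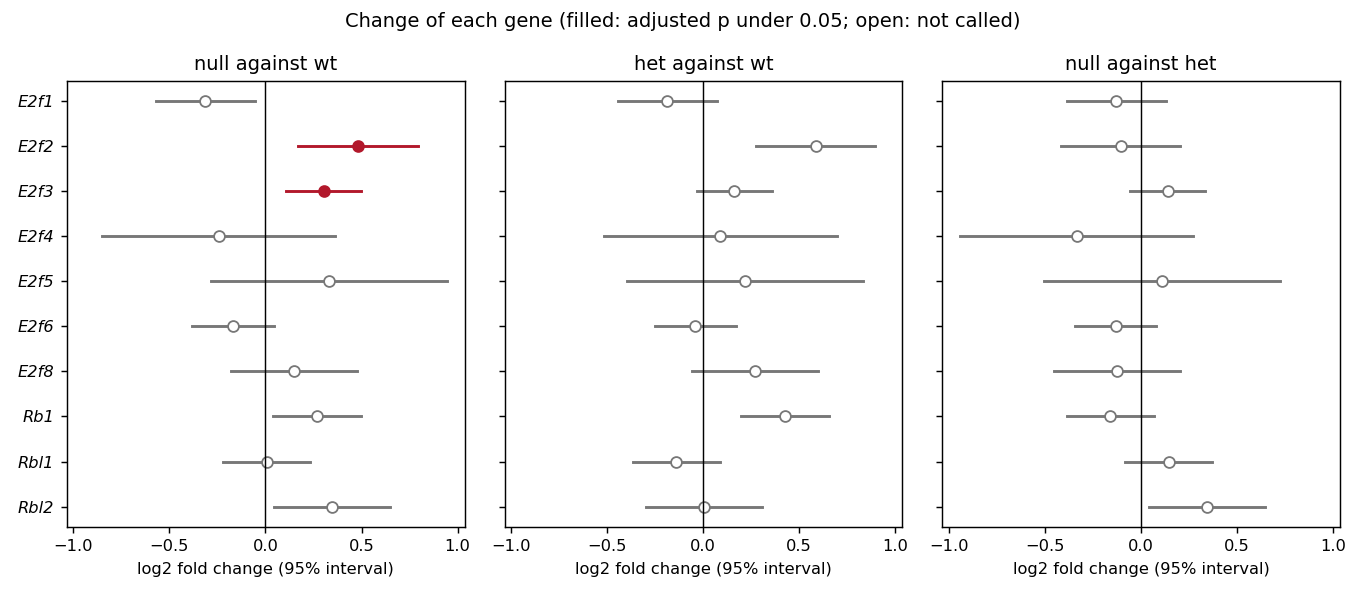
Log2 fold change of each gene with its 95% interval in null against wt, het against wt and null against het; filled points have an adjusted p under 0.05. Filled points are E2f2 (0.48) and E2f3 (0.30) in null against wt, and the other 2 comparisons have none.

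Across the 10 genes the median change was 0.21 in null against wt, beside -0.043 over all genes tested. It was 0.13 in het against wt, beside -0.0080, and -0.11 in null against het, beside -0.029. These medians count E2f5 by its brightest probe set, though no direction is given for that gene. In null against wt this probe set gave 0.33, and the others of E2f5 gave -0.68 and -0.41. In null against wt 5 of 10 had an unadjusted p under 0.05 (29% of all genes). The arrays did not overlap for 6 of 10, 4 higher and 2 lower in null (33% of all genes, 14.1% higher and 19% lower), and those 6 are E2f2, E2f3, Rb1, Rbl2, E2f1 and E2f6.

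With het cells the family gave no call. In het against wt limma called 0 of 10, beside 1.39% of all genes (0.697% higher and 0.697% lower), and 2 had an unadjusted p under 0.05 (12.9% of all). The arrays did not overlap for 4 of 10 (18.3% of all, 8.48% higher and 9.78% lower): E2f2, E2f3 and Rb1 higher and E2f1 lower in het cells. For E2f3 the margin was very narrow, 431.1 in het replicate 2 against 430.7 in wt replicate 2. In null against het limma called 0 of 10, beside 14.3% of all genes (6.84% higher and 7.49% lower), and 1 had an unadjusted p under 0.05 (27.9% of all). Rbl1 and Rbl2 were the 2 genes whose null and het arrays did not overlap, both higher in null cells (32.7% of all, 14.7% higher and 18% lower). Null against wt and het against wt share the 3 wt arrays.

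The partners, regulators and described targets of the family were counted in 6 lists. Like the family's members, they were chosen with earlier results of these data known. Setting their counts and medians beside those of all genes is therefore not an independent test. The median change over all genes tested in null against wt was -0.043. Among 10 DP partners and members of the MuvB and Myb complexes, 1 rose and 1 fell in null against wt (median 0.028), beside 7.6% and 8.09% of all genes. Lin54, the DNA-binding subunit of MuvB, read 702, 612 and 701 in null, 489.7, 582 and 532 in het, and 327, 398 and 429.7 in wt cells. The 3 groups did not overlap, in the order null, het, wt. Null against wt gave 0.79 (SE 0.11, adjusted p = 0.000284) and het against wt 0.47 (adjusted p = 0.0487); another Lin54 probe set gave -0.20 in null against wt (adjusted p = 0.511). Tfdp2, a DP partner of E2Fs, read 139, 133 and 154 in null, 199, 204 and 167 in het, and 195, 184 and 186 in wt cells. It fell by 0.38 in null against wt (adjusted p = 0.0274), while other Tfdp2 probe sets gave -0.026 (adjusted p = 0.913) and -0.15 (0.584). The Tfdp2 call was lost without null replicate 1 (0.0732) or 2 (0.0817) or wt replicate 1 (0.0805), 2 (0.0516) or 3 (0.0627). With the mean of all probe sets, null against wt gave 0.29 for Lin54 (adjusted p = 0.176) and -0.18 for Tfdp2 (0.351). The list then had 0 higher and 0 lower.

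Of 20 corepressor genes tested, 2 rose and 2 fell in null against wt (median -0.0063), beside 7.6% and 8.09% of all genes. The histone deacetylase gene Hdac1 rose by 0.32 (adjusted p = 0.0240) and Rnf2, a Polycomb ubiquitin ligase found with E2F6, by 0.37 (0.0255). Another Rnf2 probe set gave -0.043, and the mean of all its probe sets 0.062, which was not called (adjusted p = 0.706). The corepressor gene Ctbp1 fell by 0.27 (adjusted p = 0.0130) and the chromatin remodeller Smarca2 by 0.43 (0.0262). Each of these calls was lost when some single arrays were left out. For Hdac1 those were null replicates 2 (0.0744) and 3 (0.0908) and wt replicate 1 (0.0844), and for Ctbp1 wt replicate 2 (0.0510). For Rnf2 they were null replicates 2 (0.0890) and 3 (0.0716) and wt replicates 2 (0.0768) and 3 (0.0635). For Smarca2 they were null replicates 2 (0.0787) and 3 (0.0565) and wt replicates 2 (0.0648) and 3 (0.114).

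The kinase pathway that controls the pocket proteins held the largest changes among these lists by the brightest probe set of each gene, with 4 of 17 genes higher and 2 lower in null against wt (median -0.019), beside 7.6% and 8.09% of all genes. Cdkn2c, which encodes the CDK4 and CDK6 inhibitor p18, read 119.5, 92.5 and 98.3 in null, 143, 141 and 121 in het, and 318, 334 and 286 in wt cells. Null and het values lay far below wt, by -1.50 (SE 0.12, adjusted p = 2.58e-06) and -1.15 (adjusted p = 8.08e-05). Cdkn1a, which encodes the inhibitor p21, read 310.0, 226 and 244 in null, 91.2, 88.9 and 88.4 in het, and 82.1, 80.9 and 57.3 in wt cells. Only the null group was called against wt (1.67, SE 0.14, adjusted p = 4.46e-06), and null against het gave 1.41 (adjusted p = 3.53e-05). Ccne2, a cyclin E that activates CDK2, read 1000.0, 872 and 1099 in null, 600.1, 590.1 and 684 in het, and 680.1, 522 and 718 in wt cells. It rose in null against wt by 0.63 (adjusted p = 0.00291).

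Cdkn1b, which encodes the inhibitor p27, rose by 0.43 (adjusted p = 0.00686), though a dimmer probe set gave -0.35 (adjusted p = 0.450). The mean of all Cdkn1b probe sets gave 0.042 and was not called (adjusted p = 0.894). The cyclin D gene Ccnd2 rose by 0.30 (adjusted p = 0.0373), while its 6 other probe sets gave 0.066 to 0.22 and were not called, nor was the mean of all its probe sets (0.17, adjusted p = 0.197). Its kinase gene Cdk4 fell by 0.26 (0.0301), with -0.31 and -0.22 from other probe sets that were not called. So by the brightest probe sets the RNAs of inhibitors moved both ways, those for p21 and p27 higher and that for p18 lower. The call on Ccnd2 was lost without null replicate 1 (0.0914) or 2 (0.124) or wt replicate 2 (0.100) or 3 (0.110). That on Cdk4 was lost without null replicate 1 (0.0951) or 3 (0.0795) or wt replicate 2 (0.0914) or 3 (0.0909). In het against wt the list had 1 of 17 called, Cdkn2c.

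Of 32 described E2F targets of S phase, 1 rose and 2 fell in null against wt, with a median of -0.00033, beside 7.6% higher and 8.09% lower over all genes. Rrm2, a subunit of the enzyme that makes deoxyribonucleotides, rose by 0.27 (adjusted p = 0.0198). Other Rrm2 probe sets gave -0.041 (adjusted p = 0.842) and 0.25 (0.0862), and the mean of all of them 0.16 (0.194), none of which passed. Thymidine kinase gene Tk1 fell by 0.35 (adjusted p = 0.0280) and the uracil glycosylase gene Ung by 0.30 (0.0354). The Rrm2 call was lost without null replicate 1 (0.0597), null replicate 3 (0.0841) or wt replicate 2 (0.0827). The Tk1 call was lost without null replicate 1 (0.0796) or 2 (0.0748) or wt replicate 1 (0.0827) or 3 (0.107), and the Ung call without null replicate 1 (0.119) or 3 (0.0762) or wt replicate 1 (0.0757) or 3 (0.118). The summed signal of the 32 genes was 40782 to 42410.1 in null, 39832 to 41401 in het and 38559 to 40583 in wt cells.

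Of 21 mitotic genes described as targets of E2F or MuvB complexes, 0 rose and 4 fell in null against wt (median -0.057), beside 7.6% and 8.09% of all genes. Cenpa, the centromeric histone, read 358, 363 and 314 in null, 628, 575 and 512 in het, and 606, 718 and 656 in wt cells. On this probe set null values lay below both other groups, by -0.91 against wt (SE 0.10, adjusted p = 4.48e-05), while het and wt overlapped. Another Cenpa probe set was called lower both in null (-2.06, adjusted p = 0.000148) and in het cells (-1.21, adjusted p = 0.0307) against wt, and a dim one gave 0.079 in null against wt. Ube2c, a ubiquitin-conjugating enzyme of mitotic exit, read 208, 202 and 177 in null, 265, 235 and 233 in het, and 258, 327 and 271 in wt cells and fell by 0.52 (adjusted p = 0.00574). Birc5, a subunit of the chromosomal passenger complex, fell by 0.53 (adjusted p = 0.00156) and the kinetochore motor gene Cenpe by 0.48 (0.00202). These 4 calls stood without any 1 array. The other 17, the kinase genes Cdk1 and Plk1 among them, were not called. The summed signal of the 21 genes was 16619 to 17966 in null, 16414 to 17506 in het and 17564 to 19028 in wt cells. Null and wt sums overlapped, while all het sums lay below all wt sums. In het against wt the median of the list was -0.12, beside -0.0080 over all genes tested, with 0 of 21 called.

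Of 7 death-related genes described as E2F1 targets, 2 rose and 0 fell in null against wt, beside 7.6% and 8.09% of all genes, and the median was 0.26, beside -0.043. Both encode BH3-only proteins that promote apoptosis. Bcl2l11 read 260.0, 239 and 235 in null, 124, 131 and 140.0 in het, and 111, 148 and 152 in wt cells, a rise of 0.80 in null against wt (adjusted p = 0.000614). Other Bcl2l11 probe sets gave 0.70 (adjusted p = 0.00127), 0.42 (0.468) and 0.29 (0.537), and with the probe set of largest variance standing for the gene the call was lost (0.42, adjusted p = 0.483). Pmaip1 read 51.4, 48.3 and 79.9 in null, 19.9, 16.1 and 20.4 in het, and 31.8, 31.2 and 22.9 in wt cells, also 0.80 (adjusted p = 0.00970), a call lost without null replicate 3 (0.0566). The het values of both genes lay near or below wt, and 0 of 7 were called in het against wt.

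In het against wt the 6 lists gave 2 calls, Lin54 higher and Cdkn2c lower, beside 1.39% of all genes. The Lin54 call in het against wt was lost in 14 of 22 alternatives, among them leaving out any 1 array other than wt replicate 3. Null against het gave 2 higher and 3 lower of 10 partner genes, 2 and 2 of 20 corepressors, 4 and 2 of 17 cyclin, kinase and inhibitor genes, 0 and 3 of 32 S-phase genes, 2 and 2 of 21 mitotic genes, and 3 and 0 of 7 death-related genes, beside 6.84% higher and 7.49% lower over all genes. With 1 array left out, these became 0 to 2 higher and 0 to 2 lower for partners, 0 to 2 and 2 to 3 for corepressors, and 3 to 4 and 0 to 2 for cyclin, kinase and inhibitor genes. They became 0 to 1 and 2 to 3 for S-phase genes, 0 to 2 and 1 to 3 for mitotic genes, and 2 to 3 and 0 for death-related genes. Both comparisons with null share its 3 arrays.

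**Figure D4:**
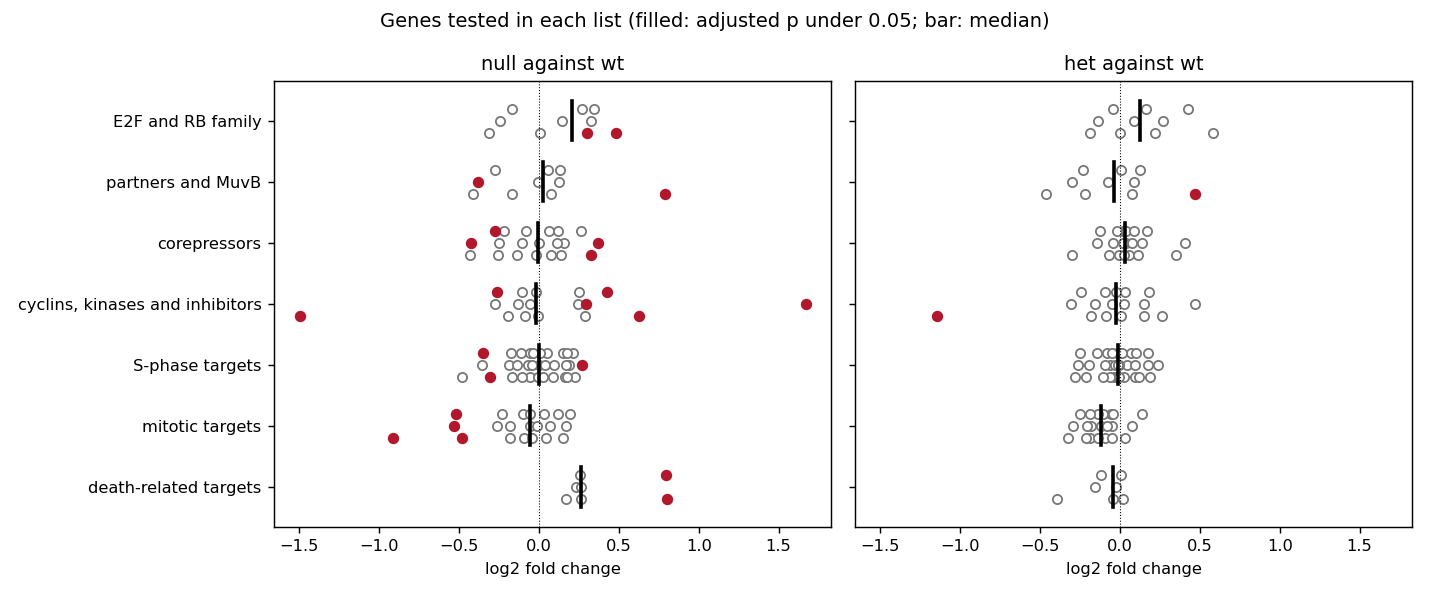
Log2 fold change of each gene tested, for the E2F and RB family and 6 lists of partners, regulators and described targets, in null against wt and het against wt; filled points have an adjusted p under 0.05 and bars are medians. In null against wt the medians are 0.21 for the family, 0.26 for the death-related genes and -0.057 to 0.028 for the other 5 lists. The family's median counts E2f5 by its brightest probe set (0.33). Members and lists were chosen with earlier results of these data known. In that comparison Cdkn1a (1.67) and Cdkn2c (-1.50) lie farthest out.

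The genes whose log2 signals followed those of the 3 family members with the smallest p most closely were listed over the 9 arrays. For E2f3 they were Samd8 (Pearson r 0.950), Dok3 (0.943) and Adgre5 (0.934). For E2f2 they were Vps39 (0.928), Orly (0.923) and Ripk3 (0.922), and for E2f1 they were Psmd13 (0.961), Sec13 (0.953) and Znf41-ps (0.946). These are the highest of 12347 values, over arrays that share genotype groups and scaling. With group means removed, r for the nearest gene of each was 0.83 (Samd8), 0.76 (Vps39) and 0.89 (Psmd13). Since the same 9 arrays had picked these genes, such values are no separate check of the likeness.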

How the data were processed

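RNA of sorted GMPs was measured on 9 Affymetrix arrays, 3 for each Dicer1 genotype. The deposited intensity values are MAS5 signals, per the submitters' processing notes, with no version or settings given in the sources used here. All arrays have a 2% trimmed mean of 100, and this scaling hides any shift common to most transcripts. Array medians ranged from 12.4 to 16.1. Arrays have no read depth; their number limits the precision.

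Of the probe sets, 34945 carry 1 symbol in the platform annotation, 932 more than 1, 9160 no symbol, and 64 are controls. Entrez identifiers of 34741 matched the RefSeq table of GRCm38.p6. The probe set with the highest mean of log2(signal + 12) stood for a gene. Genes whose mean fell under the 40th percentile, a signal of 8.49, were left out. limma 3.58.1 in R 4.3.3 (lmFit, eBayes with an intensity trend) fitted all 9 arrays in 3 groups (degrees of freedom 6 residual, 8.1 prior). P-values are two-sided, adjusted by Benjamini-Hochberg over all genes tested, or over 22365 probe sets in a second fit. The smallest p that 3 arrays against 3 allow in an exact permutation test is 0.1.

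Log2 signals correlated at 0.984 to 0.989 within genotypes and 0.972 to 0.985 between them. Besides the family and Dicer1, the text names each list's genes called in null against wt (at most 6), and the 3 genes most correlated with each of the 3 family members of smallest p. Markers, Xist, Eif2s3y, E2f7 and a few uncalled genes are named as checks or examples. The members and lists were chosen with earlier results of these data known. Alternatives changed the pseudocount, filter, normalization, probe set, prior, weights, arrays and replicate block, and left out each array in turn.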

Additional observations from a re-analysis of the deposited data

How the results depend on the processing

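Members called in null against wt numbered 2, and 1 with no filter on dim genes, 1 with quantile normalization, and 0 with the mean of all probe sets, the probe set of largest variance or no intensity trend; leaving out 1 array gave 0 to 3. In het against wt 0 became 2 with quantile normalization (E2f2, adjusted p = 0.0474; Rb1, 0.0478) and 1 with array weights (Rb1, 0.0391), and in null against het it stayed 0 in the alternatives run. The 3 probe sets called in null against wt became 0 with no filter, no intensity trend or only the arrays compared, and 1 with quantile or cyclic loess normalization, and 0 to 3 with 1 array left out. In het against wt 1 probe set was called with array weights, and in null against het 0 to 1 with 1 array left out. E2f2 was called in 13 of 22 alternatives (0.32 to 0.57, adjusted p 0.0149 to 0.120) and E2f3 in 14 of 22 (-0.031 to 0.36, 0.0270 to 0.947). The cause of these differences was not tested.

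Several small changes turned direction. With the mean of all probe sets, E2f5 gave -0.25 in null against wt, -0.073 in het against wt and -0.18 in null against het, Rbl1 -0.073 in null against wt and Rbl2 -0.021 in het against wt. Rbl1 in null against wt also gave -0.047 with quantile, -0.0046 with cyclic loess and -0.0062 with array weights, and Rbl2 in het against wt -0.058 with array weights. With the probe set of largest variance, null against wt gave -0.031 for E2f3, -0.041 for E2f8 and -0.35 for Cdkn1b, het against wt -0.12 for E2f3, and null against het 0.017 for E2f1 and 0.021 for E2f6. The E2f3 probe set 1427462_at gave 0.064 with quantile and 0.081 with cyclic loess, and the E2f8 probe set 1444319_at 0.016 with cyclic loess.

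With 1 array left out, null against wt ranged from -0.020 to 0.31 for E2f8, -0.12 to 0.13 for Rbl1, -0.058 to 0.32 for 1455790_at, -0.21 to 0.082 for 1427462_at, -0.31 to 0.024 for 1417878_at, -0.30 to 0.20 for 1444319_at and -0.16 to 0.055 for 1425166_at. Het against wt ranged from -0.11 to 0.017 for E2f6, -0.097 to 0.075 for Rbl2, -0.099 to 0.33 for E2f4 and -0.014 to 0.58 for E2f5, and null against het from -0.19 to 0.026 for E2f2 and -0.15 to 0.30 for E2f5.

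Same-numbered arrays of different genotypes deviated together at r -0.027 to 0.14 over 9 pairs, beside -0.15 to 0.092 for differently numbered ones. These values cannot exclude a weak pairing, and the labels state none. In the main fit the replicate number was not taken to pair the samples. With it as a block, 2 members were again called in null against wt (E2f2, adjusted p = 0.0418; E2f3, 0.0357), 0 in het against wt, 0 in null against het, and 2111 genes in all instead of 1937.

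Over all genes, null against wt gave 1290 calls with no intensity trend and 1256 without null replicate 3, in place of 1937. Het against wt gave 112 with no filter, 86 with the mean of all probe sets, 83 with no intensity trend, 97 without het replicate 2 and 102 without het replicate 3, in place of 172. Null against het gave 1103 with no intensity trend, 1065 without null replicate 3 and 1033 without het replicate 1, in place of 1770. Signals near 8.49, such as those of E2f4, limit what can be seen.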
